A study of Homo sapiens with 12 samples.

Results

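The aryl hydrocarbon receptor (AHR) pathway was followed in HepG2 cells through 8 genes: the receptor AHR, its partner ARNT, the feedback genes AHRR and TIPARP, and the target genes CYP1A1, CYP1A2, CYP1B1 and ALDH3A1. They were chosen by symbol, and each matched 1 of the 60612 gene rows of the deposited count table. HepG2 is an established human liver cancer line with many hepatocyte functions. The cells received the herbicide 2,4-D (2,4-dichlorophenoxyacetic acid, a synthetic auxin) at a single dose, 0.001 µM, and polyadenylated RNA was sequenced after 0, 10, 30 and 360 min from 3 biological replicates at each time, 12 libraries in all. The 0 min cells are the untreated group of the labels. No untreated libraries of the later times were analysed here, so the exposure and the time that passed cannot be told apart, and a single line was used.

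AHR is a transcription factor of the bHLH-PAS family that waits in the cytoplasm bound to HSP90 chaperones. A ligand moves it into the nucleus, where it pairs with ARNT and binds xenobiotic response elements, DNA sites with the core GCGTG, near its target genes. The CYP1 enzymes it induces oxidise many planar aromatic compounds, and in liver cells CYP1A1 RNA is the usual readout of the receptor, while AHRR and TIPARP are induced by it and dampen it.

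The response element core was looked up in the promoter windows of the members, 250 bases before to 50 after a transcription start in RefSeq on GRCh38.p14. Windows were found for 6 of the 8 members, 9 in all. The 4 printed here belong to CYP1A1 and CYP1A2, neighbouring targets that lay far apart in level, to the receptor, and to TIPARP, for which the first of 3 windows is given. Capitals mark GCGTG or its reverse complement CACGC, and each window runs 5′ to 3′ on the gene's own strand.
CYP1A1, chr15:74725479-74725778, minus strand: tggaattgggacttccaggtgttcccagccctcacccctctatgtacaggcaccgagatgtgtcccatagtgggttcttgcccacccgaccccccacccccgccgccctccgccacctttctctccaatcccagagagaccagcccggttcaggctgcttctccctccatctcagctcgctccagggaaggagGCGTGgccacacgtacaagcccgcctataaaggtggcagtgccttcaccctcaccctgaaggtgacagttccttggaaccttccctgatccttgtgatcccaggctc
CYP1A2, chr15:74748595-74748894, plus strand: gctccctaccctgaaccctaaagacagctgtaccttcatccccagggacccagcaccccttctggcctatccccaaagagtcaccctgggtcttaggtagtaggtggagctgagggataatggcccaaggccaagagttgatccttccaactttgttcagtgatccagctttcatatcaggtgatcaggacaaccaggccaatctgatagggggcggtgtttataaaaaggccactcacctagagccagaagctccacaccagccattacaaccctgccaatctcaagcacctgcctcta
AHR, chr7:17298402-17298701, plus strand: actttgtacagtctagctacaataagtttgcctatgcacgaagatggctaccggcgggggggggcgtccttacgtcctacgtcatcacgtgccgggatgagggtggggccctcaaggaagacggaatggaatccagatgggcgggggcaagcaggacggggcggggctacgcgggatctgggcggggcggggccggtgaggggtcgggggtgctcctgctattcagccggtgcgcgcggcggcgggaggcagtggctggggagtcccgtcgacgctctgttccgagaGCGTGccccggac
TIPARP, chr3:156674340-156674639, plus strand: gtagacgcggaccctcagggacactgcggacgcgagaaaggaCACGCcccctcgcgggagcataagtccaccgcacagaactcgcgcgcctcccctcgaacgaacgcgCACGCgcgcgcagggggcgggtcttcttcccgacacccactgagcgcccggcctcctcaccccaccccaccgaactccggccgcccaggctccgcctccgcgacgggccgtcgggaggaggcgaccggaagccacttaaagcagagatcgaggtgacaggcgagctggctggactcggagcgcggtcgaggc
The CYP1A1 window held 1 match, whose first base lay at -57 from the start, and the AHR window 1 match at 38. The TIPARP window held 2 matches of the reverse complement, at -208 and -142, and the other 2 TIPARP windows none. The CYP1A2 and ARNT windows held none, and the 2 AHRR windows held 1 and 2. Bases outside these windows, such as the rest of the stretch between CYP1A1 and CYP1A2, were not searched. A match to these letters is a description and not a binding site: 5 of the 9 member windows (55.6%) held at least 1, and so did 12832 of 35116 windows of all genes in the table (36.5%).

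Library totals ran from 29.8 to 83.5 in units of 1e6 counts, so that the floor of 3 counts corresponded to between 0.0359 and 0.101 counts per 1e6 counts (CPM). The line's label was checked against markers: all 10 hepatocyte markers had a mean of at least 1 CPM, and their summed level ran from 28495 to 30923 CPM at 0 min and from 31865 to 32987 CPM at 360 min. Of the fibroblast markers 5 of 6 lay under 1 CPM, with sums of 2.57 to 3.72 CPM at 0 min and 1.90 to 2.39 CPM at 360 min and with COL1A2 and DCN at 0 throughout. Of the endothelial markers 3 of 4 lay under 1 CPM, with sums of 1.29 to 1.87 and 1.69 to 1.88 CPM at those times and with KDR at 0 throughout. The immune markers summed to 1849 to 1963 CPM at 0 min and 1832 to 1915 CPM at 360 min, nearly all of it LYZ, while PTPRC, which defines leukocytes, was at 0 in every library. The share of mitochondrially encoded counts set 7 libraries (3.55% to 4.39%: 0 min replicate 1, all of 10 min, 30 min replicates 2 and 3 and 360 min replicate 3) apart from the other 5 (2.52% to 2.74%), so differences at 360 min were also computed within each side.

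Before exposure the sensor of the pathway was abundant and its target enzymes were scarce. Per kb of the principal transcript, the 0 min levels were 10.5 ± 0.14 CPM for AHR, 6.31 ± 0.35 for ARNT, 3.11 ± 0.27 for TIPARP, 2.07 ± 0.10 for ALDH3A1 and 1.01 ± 0.19 for CYP1A1 (mean ± SD, n = 3 here and below). No library of 1 of these genes overlapped the next in that order. AHRR followed at 0.039 CPM per kb, CYP1A2 at 0.014 and CYP1B1 at 0.0024, and the libraries of neighbours among these 3 overlapped. At 360 min CYP1A1 had reached 3.10 ± 0.13 CPM per kb and stood beside TIPARP at 3.19 ± 0.18, with overlapping libraries, while AHR (8.22) and ARNT (6.29) stayed on top and ALDH3A1 (1.495) was lowest of the 5.

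At 360 min the level of the classical target CYP1A1 was 3.07-fold that at 0 min, and those of AHR (0.781-fold) and ALDH3A1 (0.721-fold) were lower. These 3 were the members called by the edgeR quasi-likelihood test (Benjamini-Hochberg adjusted p under 0.05 over all genes) among the 6 members with enough counts to be tested. Of all 17779 genes tested, 18.1% were called in that comparison, so a call alone is common there. The libraries of the same 3 members did not overlap with 0 min, which was so for 35.6% of all genes. Since the RNA is from bulk cultures, fewer cells of a kind and less RNA per cell cannot be told apart for any of these differences.

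**Figure D1:**
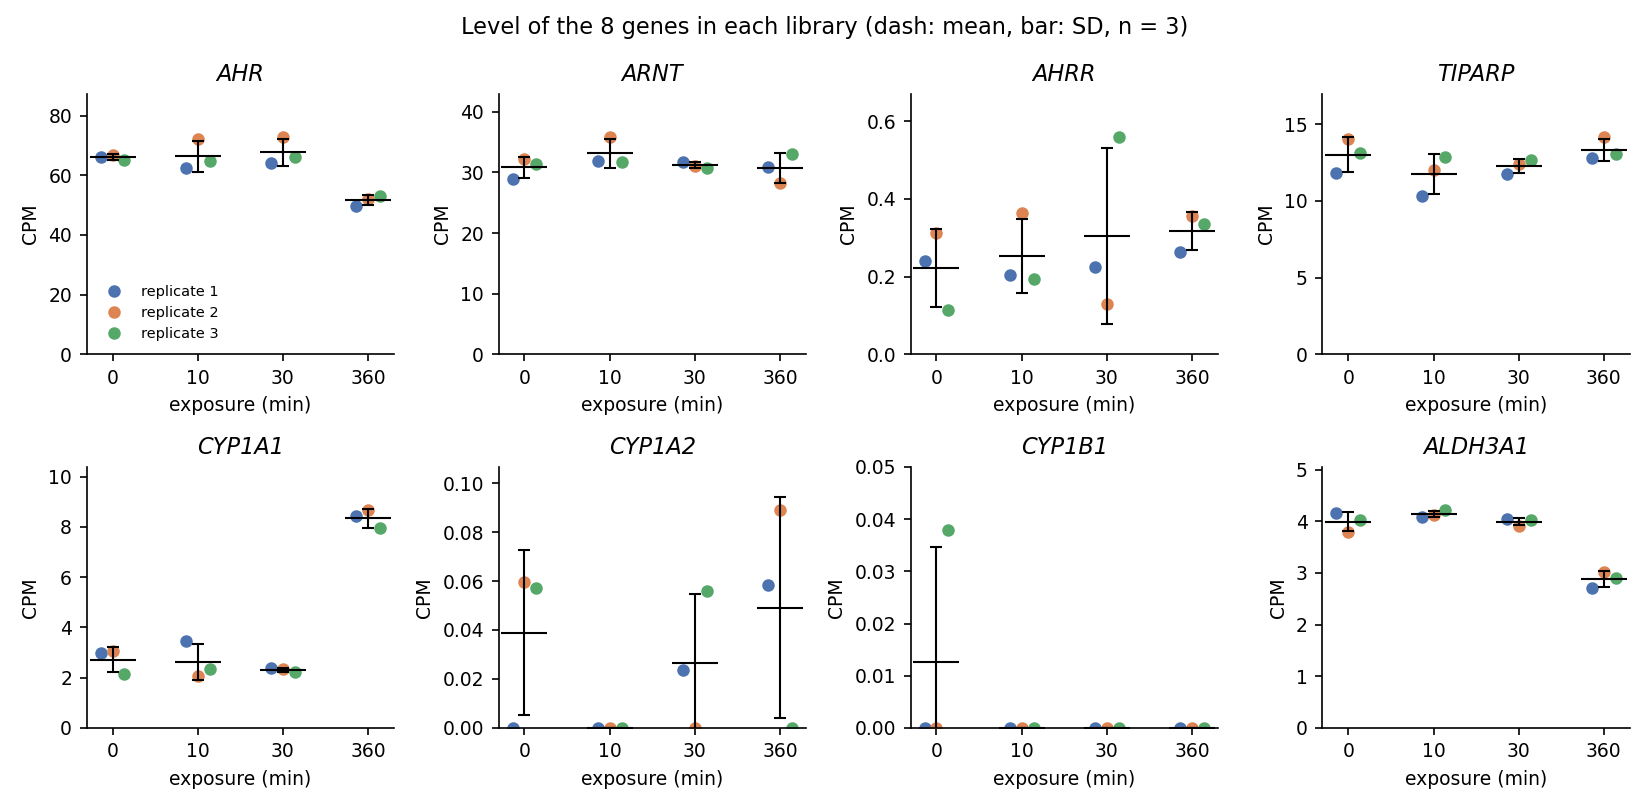
Level of each of the 8 members in CPM (vertical axis, from 0, own scale per panel) in every library against exposure time; points are single libraries and bars the mean ± SD of 3. CYP1A1 lies between 7.94 and 8.65 CPM at 360 min and under 3.5 CPM before, AHR and ALDH3A1 are lower at 360 min, and CYP1A2 and CYP1B1 stay near 0.

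The receptor AHR (ENSG00000106546, GRCh38 chr7:16916359-17346152, plus strand, 11 exons in its principal transcript) is the sensor of the pathway. In the 0 min replicates it was measured at 66.3, 66.8 and 65.1 CPM. The 10 min replicates gave 62.4, 72.3 and 64.6 CPM, those of 30 min 64.0, 72.8 and 66.3 CPM, and those of 360 min 49.7, 52.2 and 53.0 CPM. All 360 min libraries lay below all 9 others, while the 10 and 30 min libraries spread around the 0 min ones. From 0 to 360 min AHR fell by 0.36 on the log2 scale (SE 0.06, 95% interval -0.48 to -0.23, edgeR adjusted p = 0.00091), from a mean of 66.1 ± 0.90 to 51.6 ± 1.73 CPM. Within the side of low mitochondrial share the log2 ratio was -0.37 (2 libraries against 2), and within the other side -0.32 (1 against 1). The antisense gene AC073332.1, which overlaps AHR, was at 0.429 CPM at 0 min and 0.386 CPM at 360 min. The AHR model of GENCODE starts far upstream of the RefSeq window printed above.

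ARNT (ENSG00000143437, chr1:150809705-150876768, minus strand, 22 exons) is the partner without which AHR does not bind its sites, and it also pairs with the hypoxia factors. Its group means were 30.8 ± 1.73, 33.2 ± 2.35, 31.2 ± 0.50 and 30.7 ± 2.46 CPM at 0, 10, 30 and 360 min. The 12 libraries lay between 28.2 and 35.9 CPM and the groups at 0 and 360 min overlapped. The log2 difference at 360 min had a 95% interval of -0.14 to 0.14 (edgeR adjusted p = 0.99), an interval that leaves out a change of the size seen in AHR. On the 2 sides of the mitochondrial share it was -0.11 and 0.20.

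AHRR (ENSG00000063438, chr5:304176-438291, plus strand, 12 exons) encodes the repressor that competes with AHR for ARNT. It gave 158 counts in all 12 libraries, and its level ran from 0.114 to 0.313 CPM at 0 min and from 0.262 to 0.355 CPM at 360 min. The largest single value, 0.559 CPM, was in 30 min replicate 3, and every pair of times overlapped. Its log2 difference at 360 min, 0.47, had a 95% interval of -0.62 to 1.55 (edgeR adjusted p = 0.60), which is too wide at this depth to tell a rise from none. PDCD6, a far more abundant gene that overlaps AHRR, was at 59.4 CPM at 0 min and 61.4 CPM at 360 min, and the readthrough model PDCD6-AHRR had 0 counts, so that the division of reads at this locus is uncertain.

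TIPARP (ENSG00000163659, chr3:156673235-156706770, plus strand, 6 exons) encodes a mono-ADP-ribosyltransferase that marks AHR and lowers its activity, and it is an early target of ligand-bound AHR in many cells. The 0 min replicates gave 11.8, 14.1 and 13.1 CPM and the 10 min replicates 10.3, 12.0 and 12.8 CPM. Those of 30 min gave 11.7, 12.4 and 12.6 CPM, and those of 360 min 12.8, 14.2 and 13.0 CPM. No time stood clear of 0 min. The log2 difference from 0 min was -0.15 at 10 min (95% interval -0.34 to 0.04), -0.09 at 30 min (-0.28 to 0.10) and 0.03 at 360 min (-0.16 to 0.22), with edgeR adjusted p of 0.56, 0.84 and 0.87. Its antisense neighbour TIPARP-AS1 was at 0.488 ± 0.20 CPM at 0 min and 0.361 ± 0.049 CPM at 360 min (edgeR adjusted p = 0.40).

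CYP1A1 (ENSG00000140465, chr15:74719542-74725610, minus strand, 7 exons) encodes the monooxygenase whose induction marks receptor activity. The 0 min replicates gave 2.97, 3.04 and 2.13 CPM, those of 10 min 3.44, 2.08 and 2.35 CPM, and those of 30 min 2.36, 2.35 and 2.21 CPM, from 63 to 204 counts a library. At 360 min it was at 8.41, 8.65 and 7.94 CPM, from 577, 292 and 498 counts. The earlier 9 libraries overlapped each other and all lay below the 3 late ones. CYP1A1 rose by 1.62 on the log2 scale from 0 to 360 min (SE 0.17, 95% interval 1.25 to 1.99, edgeR adjusted p = 4.6e-05), from 2.72 ± 0.51 to 8.33 ± 0.36 CPM. By size this was the 9th of the 1581 genes called higher, whose median rise was 0.23. Within the sides of the mitochondrial share the log2 ratio was 1.72 (2 libraries against 2) and 1.42 (1 against 1).

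CYP1A2 (ENSG00000140505, chr15:74748844-74756202, plus strand, 7 exons), the caffeine-metabolising enzyme of adult liver, lies head to head with CYP1A1, and 23233 bases separate their starts. It stayed at the limit of detection: the 0 min replicates held 0, 4 and 3 counts, those of 10 min 0 each, those of 30 min 2, 0 and 2, and those of 360 min 4, 3 and 0. With 7 counts both at 0 and at 360 min, the exact 95% Poisson intervals were 0.018 to 0.092 and 0.017 to 0.087 CPM, which cover counting error only. The upper bound at 360 min is far under the 8.33 CPM of its neighbour. An exact two-sided permutation test of the means, 0.039 CPM at 0 min and 0.049 CPM at 360 min, gave p = 0.80, where 3 against 3 cannot go below 0.1.

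CYP1B1 (ENSG00000138061, chr2:38066973-38109902, minus strand, 3 exons), the extrahepatic family member, had 2 counts in 0 min replicate 3 and none in the other libraries. At 360 min a count of 0 allows up to 0.018 CPM over the 3 libraries together. Any difference in it was not detectable at this depth (exact permutation p = 1.0). RMDN2, which overlaps it, was at 0.813 CPM at 0 min and 0.923 CPM at 360 min.

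ALDH3A1 (ENSG00000108602, chr17:19737984-19748943, minus strand, 10 exons) encodes an aldehyde dehydrogenase that is a known AHR target. The 0 min replicates gave 4.15, 3.79 and 4.03 CPM and those of 10 min 4.09, 4.13 and 4.21 CPM. Those of 30 min gave 4.04, 3.91 and 4.03 CPM, and those of 360 min 2.71, 3.02 and 2.90 CPM. The late libraries were the lowest 3 of the 12. It moved in the direction opposite to CYP1A1, and fell by 0.47 on the log2 scale at 360 min (SE 0.09, 95% interval -0.67 to -0.27, edgeR adjusted p = 0.0037). Among the 1634 genes called lower, whose median was -0.29, ALDH3A1 ranked 446th by size and AHR 646th. The log2 ratio of ALDH3A1 was -0.45 and -0.52 on the 2 sides of the mitochondrial share.

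At the early times none of the 6 tested members was called. The edgeR test called 0 of them at 10 min, where 0.0169% of all genes were called, and 0 at 30 min, where 0.765% were. None had an unadjusted p under 0.05 at either time, and DESeq2 and limma voom called none. Such an unadjusted p was found for 1941 of all 17779 genes at 10 min and for 1652 at 30 min. CYP1A1 differed from 0 min by -0.05 on the log2 scale at 10 min (95% interval -0.44 to 0.34) and by -0.23 at 30 min (-0.61 to 0.15), so the upper bounds lie far below its difference at 360 min. For AHR the intervals were -0.12 to 0.13 and -0.09 to 0.16, and for ALDH3A1 -0.15 to 0.26 and -0.20 to 0.20. The libraries of every tested member overlapped with 0 min at both times, whereas those of 15.5% of all genes at 10 min and of 14.5% at 30 min did not.

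Between consecutive times, members were called in the last interval alone. From 10 to 30 min edgeR called 0 members, beside 0.574% of all genes, and DESeq2 and voom called none. Again no member had an unadjusted p under 0.05, while 2123 of all 17779 genes did. The 30 min libraries of ARNT and ALDH3A1 lay wholly below those of 10 min, with log2 differences of -0.09 and -0.05 (edgeR adjusted p of 0.64 and 0.88), and the libraries of these times did not overlap in 17.4% of all genes. From 30 to 360 min it called the same 3 members, among 22.7% of all genes: CYP1A1 rose by 1.85 on the log2 scale (SE 0.17, edgeR adjusted p = 1.1e-05), AHR fell by 0.39 (SE 0.06, edgeR adjusted p = 0.00033) and ALDH3A1 fell by 0.47 (SE 0.09, edgeR adjusted p = 0.0027). This comparison and the one with 0 min share the 360 min libraries. TIPARP lay above its 30 min libraries in all 3 at 360 min but was not called (log2 difference 0.12, edgeR adjusted p = 0.37), and the libraries of these times did not overlap in 39.8% of all genes. The test of any difference over the 4 times called these 3 members too, among 22.6% of all genes, with edgeR adjusted p of 1.2e-05 for CYP1A1, 0.00077 for AHR and 0.0038 for ALDH3A1.

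**Figure D2:**
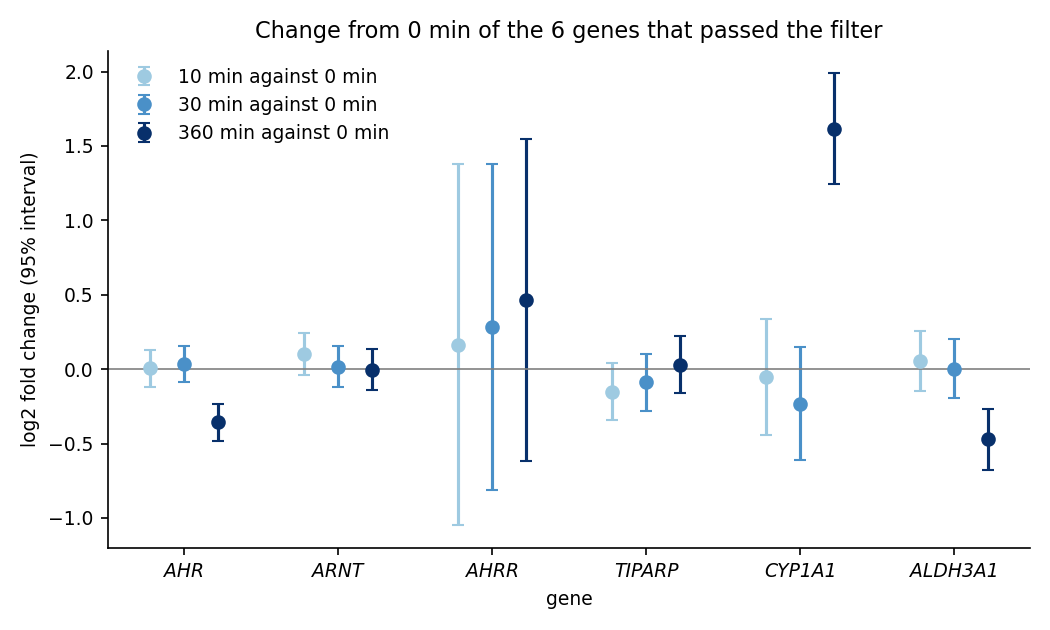
Log2 difference from 0 min (axis in log2 units, bars 95% intervals of the edgeR fit) of the 6 tested members at 10, 30 and 360 min. Only CYP1A1, AHR and ALDH3A1 at 360 min were called, at 1.62, -0.36 and -0.47.

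The rest of the pathway was read from 7 lists with 75 genes in the table, 63 of them tested. At 360 min 9 were called higher and 15 lower, 38.1% of those tested beside 18.1% of all genes. At 30 min 0 were called higher and 5 lower, 7.94% beside 0.765% of all genes. The lists were chosen with earlier results known, so these shares are a description. The shares of all genes were not matched to the lists for abundance, on which the power of the test depends. At 10 min edgeR called 0 while 15 had an unadjusted p under 0.05, DESeq2 called 6 and voom 0. Of all 17779 genes, 1941 had an unadjusted p under 0.05 at 10 min, DESeq2 called 177 and voom 3. Medians are given beside that of all genes tested, which was within 0.01 of 0 on the log2 scale in each comparison.

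Chaperones of the receptor complex split at 360 min. Of 6 tested, 2 rose and 1 fell, with a median log2 difference of 0.07. The cytosolic HSP90 genes rose: HSP90AA1 by 0.23 (1393 to 1632 CPM, edgeR adjusted p = 0.00037) and HSP90AB1 by 0.11 (adjusted p = 0.014). HSP90AB1 missed the threshold when 360 min replicate 1 (adjusted p = 0.051) or replicate 2 (0.10) was left out, with no filter on low counts (0.22) and with the compared groups alone (0.074). Reads of such paralogs can be divided between copies. None of the 6 was called at 10 or 30 min, by edgeR, DESeq2 or voom, or had an unadjusted p under 0.05 then.

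Among the bHLH-PAS relatives, which share the dimerisation domains of AHR and ARNT, 4 of 8 tested fell at 360 min and 0 rose, with a median of -0.18. They were NPAS1 (9.84 ± 0.31 to 5.69 ± 0.033 CPM, log2 difference -0.79, edgeR adjusted p = 3.5e-05), EPAS1, the hypoxia factor HIF-2 alpha (323 to 262 CPM, -0.31, adjusted p = 4.9e-05), the clock factor NPAS2 (-0.29, adjusted p = 0.00027) and SIM2 (-0.46, adjusted p = 0.0052). ARNT2, the relative of ARNT, was not tested for lack of counts.

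AHR coregulators moved both ways at 360 min, with 3 of 15 higher, 3 lower and a median of -0.00. KLF6, a zinc finger factor that can bind with AHR at other sites, had the largest difference, from 88.2 ± 21.7 to 47.2 ± 0.98 CPM (log2 difference -0.90, edgeR adjusted p = 0.00035). The arginine methyltransferase CARM1 also fell (-0.18, adjusted p = 0.0047), and the coactivator NCOA3 rose (0.26, adjusted p = 8.3e-05). MED1 and EP300, named after their values were seen, rose by 0.18 and 0.14 (edgeR adjusted p of 0.016 and 0.013). Leaving out 360 min replicate 3 ended the EP300 call (adjusted p = 0.075), and leaving out 0 min replicate 1 (0.068) or 360 min replicate 2 (0.062) or replicate 3 (0.050) ended that of MED1. KLF6 was the list's only call at 30 min (log2 difference -0.74, adjusted p = 0.014). That early call was lost with the compared groups alone (adjusted p = 0.12) and on leaving out any library of the 2 times except 0 min replicate 1, with adjusted p of 0.078 without 0 min replicate 2, 0.054 without replicate 3, and 0.064, 0.057 and 0.082 without 30 min replicates 1, 2 and 3.

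Of the 5 genes for ubiquitination and degradation of the receptor, edgeR called 0 at 360 min. At an unadjusted p under 0.05 there was 1, beside 5423 of all 17779 genes, and DESeq2 and voom called 0. DDB1, the most abundant, was at 419 ± 14.8 CPM at 0 min and 432 ± 9.63 CPM at 360 min.

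Other genes described as AHR targets did not follow CYP1A1 as a group. Of 12 tested of 17, 1 rose and 4 fell at 360 min, with a median of -0.04. The cell cycle inhibitor CDKN1B rose (40.5 ± 1.78 to 54.95 ± 1.85 CPM, log2 difference 0.44, edgeR adjusted p = 2.8e-05). CYP2S1, another dioxin-inducible cytochrome, fell (23.1 ± 1.41 to 13.7 ± 1.23 CPM, -0.75, adjusted p = 1.4e-05), as did the quinone reductase NQO1 (782 to 697 CPM, -0.17, adjusted p = 0.0016) and the efflux pump ABCG2 (-0.21, adjusted p = 0.014). Leaving out 360 min replicate 1 ended the ABCG2 call (adjusted p = 0.061). The Notch target HES1, named after its values were seen, was the fourth to fall (-0.66, adjusted p = 0.029). Its call was lost without any 1 of 5 libraries, 0 min replicates 1, 2 and 3 (adjusted p of 0.053, 0.065 and 0.080) and 360 min replicates 1 and 2 (0.11 and 0.097). At 30 min only the scaffold gene NEDD9 was called (188 to 148 CPM, -0.35, adjusted p = 0.013), a call that ended on leaving out 0 min replicate 2 (0.057), 0 min replicate 3 (0.056), 30 min replicate 1 (0.060) or 30 min replicate 2 (0.073), and with the compared groups alone (0.062).

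Of the enzymes of tryptophan metabolism listed for their link to AHR ligands, 2 of 7 tested were called higher at 360 min and 0 lower. The list median was 0.18. DDC, the aromatic amino acid decarboxylase, rose from 36.4 ± 1.41 to 47.2 ± 1.59 CPM (log2 difference 0.37, edgeR adjusted p = 9.7e-05). KYNU, kynureninase, rose by 0.18 (adjusted p = 0.019), a call that ended on leaving out 0 min replicate 1 (0.063), 0 min replicate 3 (0.066), 360 min replicate 1 (0.065) or 360 min replicate 2 (0.084). TDO2, IDO1 and IDO2, the enzymes of the first step of the kynurenine route, had too few counts to be tested.

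ARNT is shared with the hypoxia factors, and a minority of their listed targets passed the test at 30 min and at 360 min. At 30 min 3 of 10 fell and 0 rose, with a median of -0.12. These were ADM, a vasodilator peptide gene (22.04 ± 2.51 to 11.05 ± 1.24 CPM, log2 difference -0.99, edgeR adjusted p = 0.00020), VEGFA, the angiogenic factor (186 to 137 CPM, -0.44, adjusted p = 0.0023), and ANKRD37 (-0.89, adjusted p = 0.028). The ANKRD37 call was lost without any 1 of the 6 libraries: adjusted p was 0.064, 0.070 and 0.12 without 0 min replicates 1, 2 and 3, and 0.12, 0.051 and 0.13 without those of 30 min. With the replicate number as a block it was 0.053. At 10 min the median was 0.22 with 0 called by edgeR or voom, 7 of 10 at an unadjusted p under 0.05 and 4 called by DESeq2. Among all 17779 genes, 1941 had such an unadjusted p at 10 min and DESeq2 called 177.

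At 360 min 3 of these 10 hypoxia targets were lower and 1 higher, with a median of -0.06. The glucose transporter SLC2A1 fell by 0.50 (580 ± 10.5 to 410.4 ± 5.22 CPM, edgeR adjusted p = 1.8e-06) and ADM by 0.45 (adjusted p = 0.0048). VEGFA fell by 0.18 (adjusted p = 0.048) and the histone demethylase KDM3A rose by 0.16 (adjusted p = 0.031). VEGFA was not called without any 1 of the 6 libraries, with adjusted p of 0.13, 0.059 and 0.10 without 0 min replicates 1, 2 and 3 and 0.066, 0.099 and 0.13 without those of 360 min. It was also lost with no filter on low counts (0.075) and with a term for the mitochondrial share (0.050). KDM3A missed the threshold on leaving out 0 min replicate 1 (0.12), 0 min replicate 2 (0.073) or any 360 min replicate (0.095, 0.11 and 0.060), and with total-count scaling (0.057) or no filter (0.066).

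**Figure D3:**
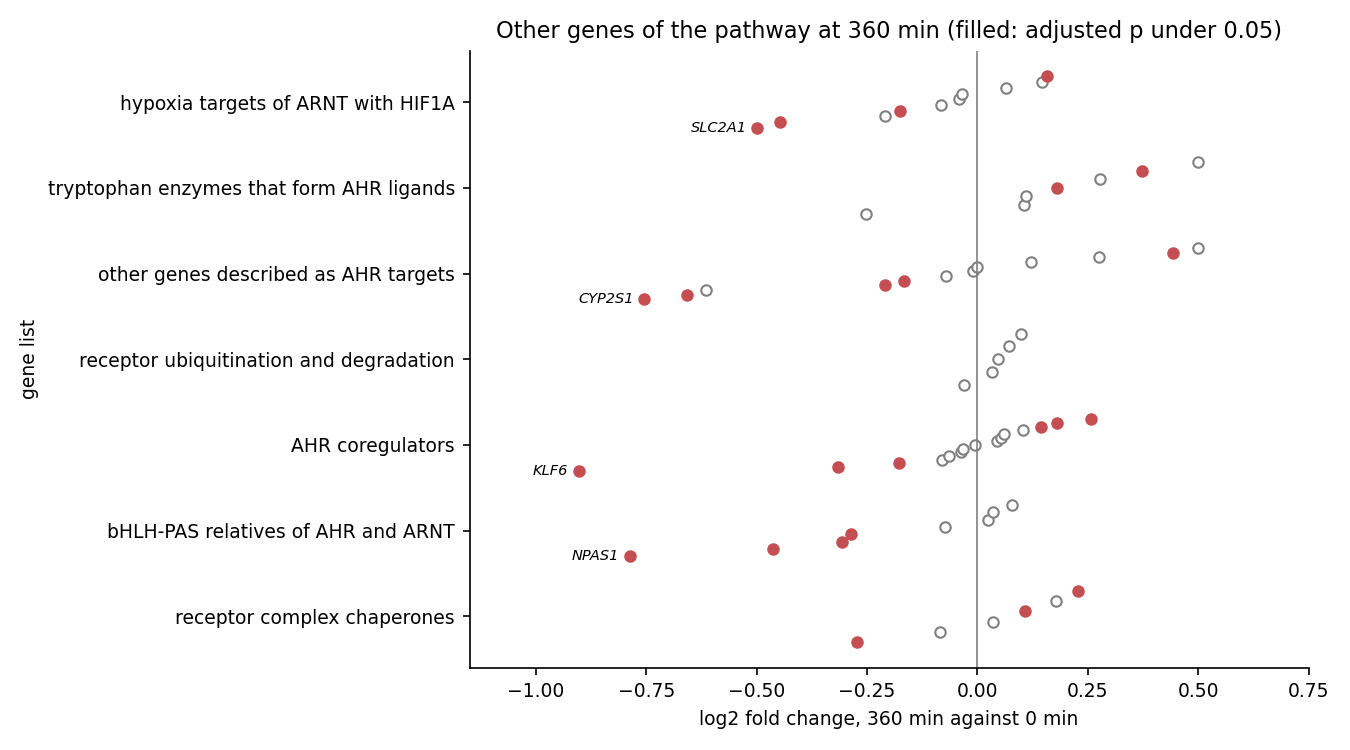
Log2 difference at 360 min against 0 min (horizontal axis, log2 units) of each tested gene in the 7 lists (rows); filled points were called by edgeR and open points were not. The list medians lie between -0.18 and 0.18, and called genes lie on both sides of 0.

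For each called member, the genes whose pattern over the 12 libraries was most like it were taken from the 12873 genes whose mean log2 CPM was at least 1, by Pearson's r of log2(CPM + 0.5). These r values describe the libraries, which share groups, and much of each is the step at 360 min. For CYP1A1 they were SFXN5, a mitochondrial carrier (r = 0.985, 44.5 to 56.2 CPM from 0 to 360 min), the spindle gene SPAG5 (r = 0.978, 104 to 126 CPM) and ALAS1, the first enzyme of haem synthesis (r = 0.978, 55.7 to 75.7 CPM). On the log2 scale they differed at 360 min by 0.34, 0.27 and 0.44, less than CYP1A1 itself.

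For AHR they were RDX (r = 0.966, log2 difference at 360 min -0.23), the myosin MYO6 (r = 0.965, -0.25) and KIAA1549 (r = 0.963, -0.36). RDX encodes radixin, which ties actin to the membrane. For ALDH3A1 they were ACSS2, the acetyl-CoA synthetase of the cytosol (r = 0.984, -0.53), UNC5CL (r = 0.983, -0.69) and the kinase CDK18 (r = 0.981, -0.32). Among the members themselves r was -0.94 between AHR and CYP1A1, 0.90 between AHR and ALDH3A1, and -0.95 between CYP1A1 and ALDH3A1.

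**Figure D4:**
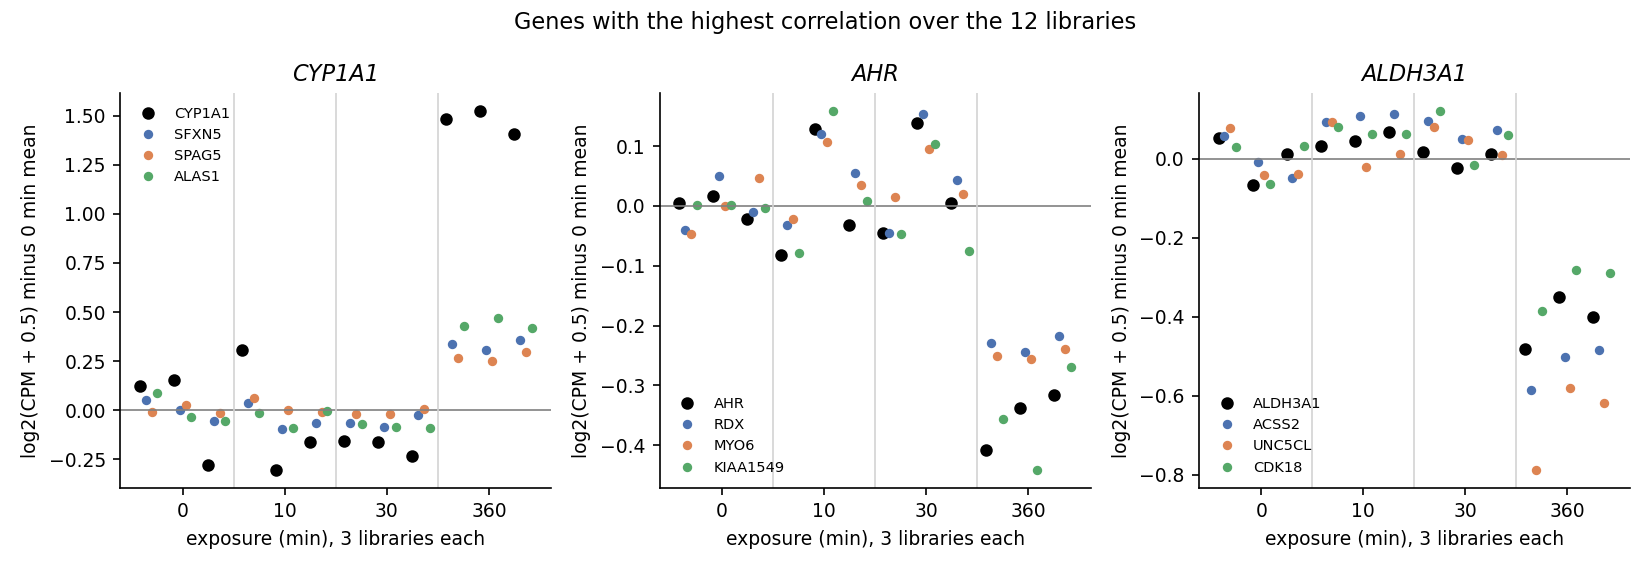
Log2(CPM + 0.5) minus the 0 min mean (vertical axis, log2 units, own scale per panel) in each of the 12 libraries, by exposure time, for the 3 called members (black) and the 3 genes of highest r (colours). The 3 libraries at 360 min stand apart from the other 9 in each panel.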

How the data were processed

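Poly(A) RNA from 12 HepG2 libraries was measured as whole-number read counts per gene, deposited by the authors as 1 table of 60612 gene rows. The submitters' processing notes name HISAT2, DESeq2 and GRCh38 without versions. How the authors counted, with which annotation and with or without strand, is not given in the sources used here, so counts of overlapping and antisense genes are uncertain. Positions and transcript lengths came from GENCODE release 29 (58394 identifiers matched, 96.3%).

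The deposited counts went unchanged into edgeR 4.0.16 (R 4.3.3): filterByExpr by group (17779 genes), TMM scaling (factors 0.981 to 1.014), a quasi-likelihood fit of 4 groups to all 12 libraries (8 residual degrees of freedom), two-sided tests and Benjamini-Hochberg adjustment over all genes. SE is the absolute log2 difference divided by the square root of F. The p-values measure the spread between the biological replicates of the labels. CPM values are TMM-scaled. CYP1A2 and CYP1B1 did not pass the filter and were compared with an exact permutation test (scipy 1.17.1). No 2 replicates of a group agreed within sampling noise.

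The members and gene lists were chosen with earlier results of these data known. Named are all 8 members, overlapping genes, up to 4 called genes of each list and comparison by smallest p (otherwise the most abundant), and the 3 genes of highest correlation with each called member. Some genes that enter the counts of the lists are not reported here by name. The alternatives changed the tool (DESeq2 1.42.0 or voom of limma 3.58.1), the scaling (RLE or total count), the filter (none, or at least 1 CPM in 3 libraries), the libraries fitted (the compared groups only, each library left out, all thinned to the smallest total), the terms (replicate number, or side of the mitochondrial share) and the threshold (0.01).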

Additional observations from a re-analysis of the deposited data

How the results depend on the processing

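The number of members called was the same as in the results in 107 of 107 recomputed values. CYP1A1, AHR and ALDH3A1 kept their calls and directions at 360 min in 16 of 16 alternatives each: against 0 min the log2 difference was 1.47 to 1.72 for CYP1A1 (adjusted p up to 0.00039), -0.39 to -0.33 for AHR (up to 0.0064) and -0.54 to -0.43 for ALDH3A1 (up to 0.021). Of 473 recomputed log2 differences of members, 38 changed sign; none was called in either setting, and their lowest adjusted p was 0.73. At 10 min AHR was -0.017 with total-count scaling, -0.0055 with no filter and -0.035 with the mitochondrial term, AHRR -0.020 with that term, and CYP1A1 0.012 and ALDH3A1 -0.0022 in thinned libraries. At 30 min ALDH3A1 was -0.0061 with the mitochondrial term and -0.042 in thinned libraries, and AHRR from 10 to 30 min was -0.14 by voom. With single libraries left out, the ranges against 0 min were, at 10 min, -0.059 to 0.050 (AHR), -0.18 to 0.56 (AHRR) and -0.29 to 0.088 (CYP1A1); at 30 min, -0.022 to 0.071 (AHR), -0.027 to 0.050 (ARNT), -0.32 to 0.69 (AHRR) and -0.034 to 0.031 (ALDH3A1); at 360 min, -0.062 to 0.044 (ARNT) and -0.038 to 0.092 (TIPARP). From 10 to 30 min they were -0.029 to 0.094 (AHR), -0.49 to 0.51 (AHRR), -0.020 to 0.13 (TIPARP) and -0.32 to 0.064 (CYP1A1), and from 30 to 360 min -0.074 to 0.028 (ARNT) and -0.21 to 0.79 (AHRR). The cause was not tested. Over all genes, the 3 calls at 10 min became 177 with DESeq2, 9 with no filter, 7 with the compared groups alone, 6 with the block, 1 at a threshold of 0.01 and 1 to 25 without single libraries. The 136 at 30 min became 271 with DESeq2, 67 with the groups alone, 62 at 0.01 and 61 to 163 without single libraries. At 0.01 the 3215 at 360 min became 1718, and DESeq2 turned the 102 from 10 to 30 min into 293, with 37 at 0.01 and 39 to 83 without single libraries. The 4034 from 30 to 360 min became 2256 at 0.01, and the 4026 of the test over 4 times 2201 at 0.01 and 2643 to 4292 without single libraries. In the lists, 1 gene for ubiquitination and degradation was called at 360 min in thinned libraries, and the calls among hypoxia targets there were 2 with no filter and 2 at 0.01 in place of 4. At 0.01 the 5 calls among other AHR targets at 360 min became 3, the 2 among tryptophan enzymes 1, and the single calls at 30 min among coregulators and other AHR targets 0, as with the groups alone. The labels number the replicates of each time alike. The correlation of deviations was -0.09 to 0.21 over 18 pairs of equal number, with a median of 0.070 and 6 over 0.1, and -0.17 to 0.13 over 36 pairs of different number, with a median of -0.032 and 2 over 0.1. Of the 12 libraries 8 correlated best with their own number, a hint of pairing from the data and not from the design. Since not every pair of equal number was over 0.1, the numbers were not used as pairs; with the replicate block 3 members were still called at 360 min against 0 min and 0 at 10 and 30 min. Depth limits CYP1A2, CYP1B1 and AHRR, whose counts leave wide intervals.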
